A study of Homo sapiens with 30 samples.

Results

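Across 382978 sites listed in HEK 293T cells (an established line from human embryonic kidney), 474 sites (0.124%) carried a higher share of edited reads when an MCP-deaminase fusion carried a nuclear localisation signal (NLS) than when it carried a nuclear export signal (NES). The measure was the share of reads with G, since inosine made from adenosine is read as G in cDNA, and shares are given here in percent of reads. Members were chosen by the measured values: the mean share over 8 NLS libraries exceeded the mean over 8 NES libraries by 2 percentage points or more, and the share was higher with the NLS in at least 7 of the 8 matched pairs. The reverse rule, NES above NLS, selected 40441 sites (10.6% of the list). The NLS and NES values at the 474 sites are therefore a description and carry no test.

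All samples were transfected or untransfected HEK 293T cells, harvested for poly(A) RNA 60 h after transfection and sequenced as paired 100-base reads. The 16 MCP libraries form a complete set of combinations: the deaminase domain (DD) of ADAR1 or of ADAR2, either wild type or carrying E1008Q (ADAR1) or E488Q (ADAR2), which replace a glutamate by glutamine and are both called E-to-Q below, with NLS or NES, and with or without an MS2 adRNA, the guide that MCP binds. Libraries outside the rule were 4 of full-length ADAR2 (wild type and E488Q forms, each with and without a GluR2 adRNA), 2 of a Cas13b-ADAR2 DD (E488Q) fusion (with and without its gRNA), and 4 control transfections that received GFP or only a guide (MS2 adRNA, GluR2 adRNA or Cas13b gRNA). Untransfected cells were also sequenced as 4 samples, and whether these are repeated runs of 1 library was not established here. Each construct and guide combination had 1 library, so SDs are over matched pairs of constructs, which are not replicates, and a p-value describes these constructs only. The amount and the place of each fusion protein in the cell were not measured in these files, and the effect of a signal cannot be told apart from that of the amount of protein. Transcript levels were not analysed here, so the cell line was not checked against marker genes. No read counts accompany the shares, so depth is unknown and single shares stand without an interval.

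ADAR enzymes deaminate adenosines in double-stranded RNA. Full-length ADAR2 binds such RNA through its own double-stranded RNA-binding domains and is known as a nuclear protein that gathers in the nucleolus. The fusions lack those domains and rely on MCP, a phage coat protein that binds MS2 hairpins, or on Cas13b for recruitment, yet the deaminase domain alone can act on other transcripts, which is called off-target editing. An NLS is carried into the nucleus by importins, and an NES is carried out by XPO1. The 2 forms could therefore meet different pools of RNA, but which RNA each fusion met was not tested.

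Of the 12 sites with the largest differences among those lying in the exons of exactly 1 coding or long noncoding gene, 11 are shown with the 10 bases on either side, so that the neighbours of the edited base can be compared. The sequences are from the GENCODE release 29 transcripts (GRCh38), on the transcript strand, 5′ to 3′, and the capital A is the edited base.
CLCN7: ccctccccctAcacggtgccc
RHOT2: acccttcctaAggccgctgtc
C11orf68: ggatggaaccAggtgaggagc
PSMC3IP: atggaggctgAgctcaaggaa
RAVER1: ctctgtctccAgaccccactg
ZNF445: atggcactgaAgatgtccctt
DDX23: gataagagcaAggaactgcat
MAPKAPK3: gtacctcagcAaggtgcgttg
INPP5E: tccgggtgaaAgtgaggccgg
MALAT1: gcgggcaaccActtttcccta
ACADVL: agctggcagtAcgggctctgg

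The widest gap lay in CLCN7 (ENSG00000103249.17), which codes for a lysosomal chloride-proton exchanger. Its site at chromosome 16, position 1447405, in exon 23 of 25, changes tyrosine to cysteine (Y746C, numbered from the start of the annotated protein). Shares ran from 24.6% to 61.0% with a median of 39.8% in the 8 NLS libraries, and from 0% to 7.32% with a median of 1.35% in the 8 NES libraries. The groups did not overlap, and the mean difference was 39.8 ± 11.9 points (SD over 8 pairs). In full-length ADAR2 the shares were 2.27% and 10.2% for wild type without and with the GluR2 adRNA, and 3.90% and 17.9% for E488Q. The Cas13b fusion gave 0% and 2.11% at the CLCN7 site, and the controls at most 0.901%.

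RHOT2 (ENSG00000140983.13), a GTPase of the outer mitochondrial membrane, followed with 29.5 ± 13.8 points at chromosome 16, position 672684. The site lies in an annotated transcript of the gene that has no coding frame. NLS shares were 19.0% to 66.0% (median 43.5%) and NES shares 2.86% to 23.5% (median 12.9%), so that the ranges met at their ends. Full-length ADAR2 reached 37.5%, 64.9%, 64.0% and 65.9% there (wild type without and with guide, then E488Q without and with), against 8.16% and 4.26% for the Cas13b fusion and 0% in all 4 controls.

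Another 3 coding sites had no overlap between NLS and NES libraries. The synonymous P44P site of C11orf68 (ENSG00000175573.6; chromosome 11, position 65918206) had NLS shares of 8.82% to 37.7% (median 28.2%) and NES shares of 0% to 6.25% (median 1.58%). PSMC3IP (ENSG00000131470.14), a protein of meiotic recombination, had its E113G site at chromosome 17, position 42573623, 1 base inside the 5′ end of exon 5. Its shares were 5.13% to 47.8% (median 24.6%) with the NLS and 0.893% to 4.96% (median 2.23%) with the NES. DDX23 (ENSG00000174243.9), a spliceosomal helicase, had K245R shares of 3.07% to 38.3% (median 18.6%) against 0% to 2.24% (median 0.572%) at chromosome 12, position 48837543. Full-length ADAR2 had shares below the NLS median in the latter pair of sites, 0%, 0%, 7.77% and 7.95% in PSMC3IP and 1.77%, 3.08%, 4.09% and 9.52% in DDX23.

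Among untranslated regions, the 5′ UTR of MAPKAPK3 (ENSG00000114738.10), a kinase acting below p38, held a site at chromosome 3, position 50617224, 18 bases before the end of exon 1. Shares there were 4.03% to 38.0% (median 20.9%) with the NLS and 0% to 2.15% (median 0%) with the NES. ZNF445 (ENSG00000185219.16), a KRAB zinc finger gene, had a 3′ UTR site at chromosome 3, position 44444581, with 4.17% to 68.4% (median 16.5%) against 0% to 19.0% (median 6.35%). The ZNF445 ranges overlapped, although the NLS was higher in 8 of 8 pairs.

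Editing by the NES forms was also high in RAVER1. RAVER1 (ENSG00000161847.13) codes for a splicing coregulator of the hnRNP class, and its R565G site at chromosome 19, position 10317602, had shares of 27.9% to 69.2% (median 59.3%) with the NLS and 23.9% to 49.0% (median 32.1%) with the NES. The ranges overlapped, and the share was higher with the NLS in 8 of 8 pairs.

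The last 3 of these sites met the rule in 7 pairs. INPP5E (ENSG00000148384.12), a phosphoinositide phosphatase of the primary cilium, had K594K shares of 2.08% to 62.0% (median 12.1%) against 0% to 4.29% (median 2.34%) at chromosome 9, position 136430297. MALAT1 (ENSG00000251562.8), a long noncoding RNA kept in nuclear speckles, had 0% to 56.7% (median 10.7%) against 0% to 11.1% (median 0%) at chromosome 11, position 65505492. ACADVL (ENSG00000072778.19), a mitochondrial fatty acid dehydrogenase, had V537V shares of 0% to 42.9% (median 16.2%) against 0% to 4.65% (median 2.2%) at chromosome 17, position 7224485, 6 bases inside the 5′ end of exon 17.

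**Figure D1:**
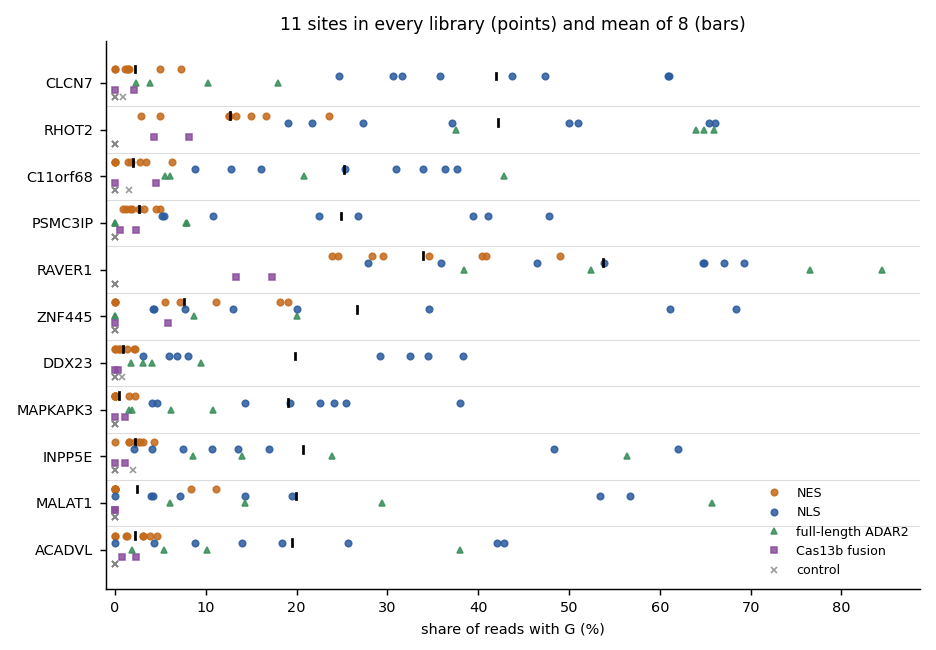
Share of reads with G (horizontal axis, percent) at the 11 sites in each NES, NLS, full-length ADAR2, Cas13b fusion and control library (1 point each). Vertical bars mark the mean of 8 NES or 8 NLS libraries. The 8 NLS points of CLCN7, from 24.6% to 61.0%, lie to the right of all its NES points, and the Cas13b points lie at or below 8.16% except in RAVER1.

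Over all 474 sites the mean NLS minus NES difference had a median of 5.04 points and ran from 2.00 to 39.8. The median site had a mean share of 13.0% with the NLS and 6.10% with the NES. A difference of 10 points or more was found at 71 sites and of 5 points or more at 240. The share was higher with the NLS in 8 of 8 pairs at 99 sites and in 7 at 375. Libraries of the 2 groups did not overlap at 10 members (2.11%, against 0.00261% of all listed sites; the rule used this contrast): those in CLCN7, C11orf68, PSMC3IP, DDX23, MAPKAPK3, SON, AURKA and ZNF76, and 2 on the unplaced scaffold KI270733.1. Just inside the threshold were sites in KIFC1 (2.00 points), ATPAF2 (2.01) and MFN2 (2.01), and just outside it sites in CAND1 (2.00, below the limit before rounding), ZNF574 (1.98) and SON (1.92). For all listed sites the median difference was -1.46 points, and 91.6% had a higher mean with the NES.

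The difference varied with the deaminase. The ADAR1 (E1008Q) pair with guide had the largest median over the 474 sites, 10.6 points, with the NLS higher at 463 of them, followed by the same pair without guide at 7.31 points. Wild-type ADAR1 gave medians of 3.79 points with guide and 3.46 without. ADAR2 (E488Q) gave 5.39 and 4.17 points, and wild-type ADAR2 1.18 and 2.64. The pair of wild-type ADAR2 with guide had 330 members higher and 103 lower, whereas in each of the other 7 pairs at least 418 were higher. The rule itself asked for at least 7 of the 8 pairs, so high counts in most pairs were fixed by it. Over all listed sites the NLS was higher at 18.9% in that pair. The ADAR1 pairs had 10.5% to 21.7%, and the other ADAR2 pairs 31.8% to 37.1%. At the listed sites as a whole, the same 8 pairs had medians between -3.33 and 0 points.

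**Figure D2:**
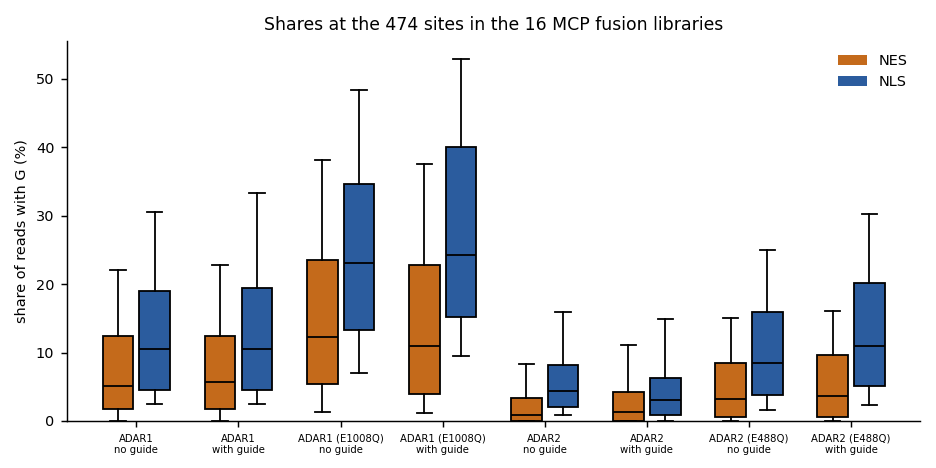
Share of reads with G (vertical axis, percent) at the 474 sites in each of the 16 MCP libraries, paired by enzyme, variant and guide. Boxes span the quartiles with the median as a line, and whiskers span the 10th to the 90th percentile of sites. The highest medians are those of ADAR1 (E1008Q) with the NLS, 24.3% with guide and 23.1% without.

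By annotation, the 474 sites lay less in 3′ UTRs and more in 5′ UTRs than the list as a whole. They also lay more in noncoding RNA, largely in XIST. Recoding sites, where the change alters an amino acid, made up 43.7% of members, 47.4% of all listed sites and 43.9% of the sites with a higher NES share. Synonymous sites were 16.7%, 16.9% and 17.0%. In 3′ UTRs lay 12.0% of members against 28.9% of all and 34.4% of the NES-higher sites, and in 5′ UTRs 11.0% against 4.23% and 2.65%. Exons of noncoding genes held 6.12% against 0.653% and 0.398%, and 20 of these 29 members lay in XIST, described below. Transcripts without a frame of coding genes held 4.22% against 0.483% and 0.235%, and introns 1.69% against 0.380% and 0.274%. Because the groups compared here are different parts of 1 list, these shares are a description.

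**Figure D3:**
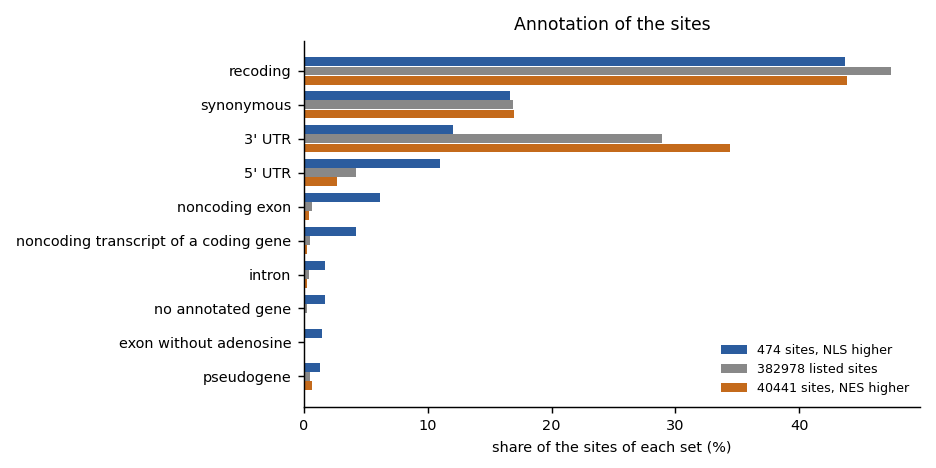
Share of sites (horizontal axis, percent) in each annotation class for the 474 sites higher with the NLS, all 382978 listed sites and the 40441 sites higher with the NES. Stop codon sites and coding sites of unknown frame are left out. The 3′ UTR bar of the 474 sites is at 12.0% and that of the NES-higher sites at 34.4%.

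The 207 recoding members had a median difference of 4.87 points, and the 79 synonymous ones 5.16. Lysine-to-arginine and glutamine-to-arginine changes were the most frequent, with 36 members each (17.4% of recoding members, against 20.3% and 13.0% of all listed recoding sites). Serine-to-glycine followed with 29, and tyrosine-to-cysteine, the change in CLCN7, with 28 (13.5% against 8.25%). The 1 stop codon member lay in DAPK3, a kinase of cell death and contraction, with mean shares of 13.5% (NLS) and 10.5% (NES).

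In 5′ UTRs, 52 members had a median difference of 4.19 points. After MAPKAPK3 the largest were in AURKA, a mitotic kinase, with 23.3% against 7.81% at chromosome 20, position 56388760, and in YTHDF1, a reader of methylated RNA, with 21.5% against 9.14% at chromosome 20, position 63215907. The AURKA site also had edited reads in the controls, with a mean of 12.7%, above its NES mean. In 3′ UTRs, 57 members had a median of 4.33 points. SLC25A25, a mitochondrial carrier, had 34.6% against 17.3% (chromosome 9, position 128108741, in exons of more than 1 gene). PABPN1, the nuclear poly(A)-binding protein, had 24.2% against 10.4% (chromosome 14, position 23324497).

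Intronic members numbered 8, with a median difference of 8.84 points. The largest were in CKB, the brain-type creatine kinase (14.9% against 3.56%, chromosome 14, position 103520871), in the pseudogene CROCCP2 (16.1% against 5.57%, chromosome 1, position 16624270) and in the pseudogene DUXAP9 (28.4% against 18.2%, chromosome 14, position 19099597). Reads on pseudogenes can come from near-identical copies elsewhere, so those positions are uncertain. A further 8 members had no annotated gene, and 4 of these lay on KI270733.1. The highest of them, at position 168868, had 17.6% against 1.34%. Members in exons of 2 or more genes were 8.23%, against 7.25% of the list, and since the libraries are not stated to keep strand, the gene of origin is uncertain there.

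XIST, the long noncoding RNA that coats the inactive X chromosome in the nucleus, held the most members, 20 of its 468 listed sites. Of the 29 members in exons of noncoding genes, 15 lay in exons of exactly 1 gene. Some of the 20 XIST members therefore lay in exons of more than 1 gene, where the gene of origin is uncertain. The largest XIST difference was at chromosome X, position 73844318, in exon 1 of 6: NLS shares were 1.05% to 43.7% (median 17.7%) and NES shares 0% to 16.4% (median 6.90%). At position 73831153, in exon 4, the NLS was higher in 8 of 8 pairs with a narrower range, 1.72% to 9.16% (median 4.22%) against 0% to 2.42% (median 0.362%). The 20 members had a median difference of 6.69 points. The other 448 XIST sites had a median of 0.0680 points, with the NLS higher at 288 and the NES at 143, and none of the sites in XIST met the reverse rule.

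After XIST, LENG8 had the most members. LENG8, whose product resembles an mRNA export factor, had 7 members with a median difference of 4.33 points, 0.255 points at its other 159 sites, and none under the reverse rule. The largest LENG8 member was Q44R at chromosome 19, position 54452185, with 14.4% against 5.58%. By contrast, ARID1A, a subunit of a chromatin remodelling complex, had 5 members at a median of 6.18 points while its other 253 sites had a median of -1.73, and 24 of its sites met the reverse rule. CKB (5 members), HCFC1, a transcriptional coregulator (5), RECQL4, a DNA helicase (5), and SETD1A, a histone methyltransferase (5), had medians at their other sites of -0.450, -0.251, -1.48 and -0.994 points. In all, members fell in 323 genes, of which 243 had 1 member and 26 had 3 or more. The 28861 other listed sites of these genes had a median difference of -1.03 points, with a higher mean under the NES at 82.5%.

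**Figure D4:**
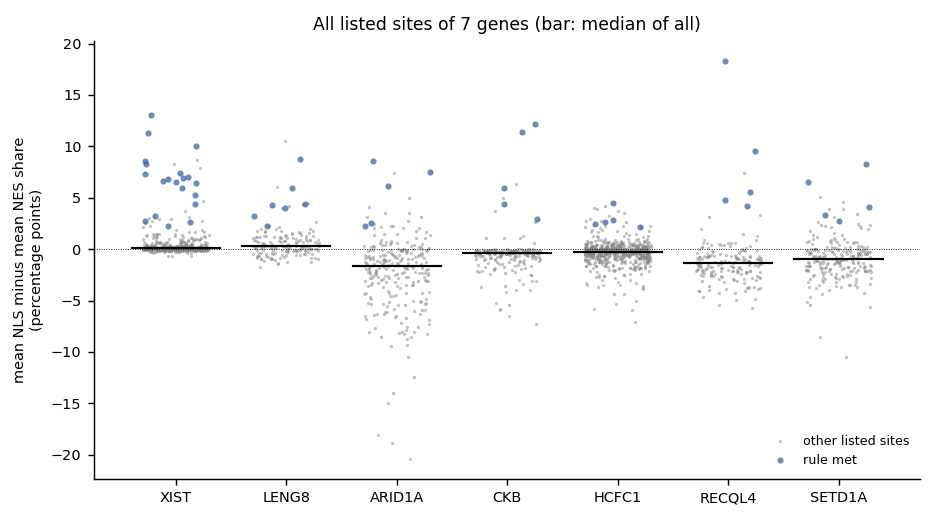
Mean NLS minus mean NES share (vertical axis, percentage points) at every listed site of the 7 genes with most members. Blue points met the rule, grey points did not, and black bars mark the median of all listed sites of a gene. The medians of XIST and LENG8 lie just above 0 and those of the other 5 genes below it.

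Gene medians above 0 were rare. Of 3973 genes with at least 30 listed sites, a minimum chosen after the data were seen, 14 (0.352%) had a median NLS minus NES difference above 0, and the median gene stood at -1.56 points. ZNF574, a zinc finger gene, came first with 0.880 points over 41 sites, of which 3 were members. MALAT1 had 0.439 points over 33 sites (21 higher with the NLS, 1 member), PPP1R10, a nuclear regulatory subunit of protein phosphatase 1, 0.177 over 112 (2 members), and XIST 0.0794 over its 468. RSRP1, an arginine- and serine-rich protein gene, had 0.760 points over 30 sites, 83.3% of them higher with the NLS, and no member.

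Medians differed among the long noncoding RNAs. NEAT1, the noncoding scaffold of paraspeckles, had a median difference of 0 points over 95 sites and no member. TUG1 had -0.190 points over 74 sites and no member. NORAD, a noncoding RNA known to work mainly in the cytoplasm, had -0.888 points over 84 sites, yet 1 member, with 2.47% to 20.2% (median 7.06%) in the NLS libraries against 1.54% to 8.24% (median 3.11%) in the NES libraries. The host transcripts of small nucleolar RNAs SNHG1 and GAS5 had -1.22 and -0.949 points and no member. Of the 461 listed sites of 7 noncoding RNAs in that list (XIST was not in it), 2 were members (0.434%, against 0.124% of all sites).

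Among coding genes, 31 genes of RNA polymerase II transcription and chromatin held 17 members at 4452 sites (0.382%) in 6 genes, with a median difference over the sites of -1.22 points. KMT2B, a histone methyltransferase, had a synonymous member (Q2150Q) with 26.8% against 16.6%, and a Q204R member with 24.4% against 15.7%. SR proteins and their kinases held 5 members at 2405 sites (0.208%), of which 4 lay in SON, a scaffold protein of nuclear speckles. The L594L site of SON (chromosome 21, position 33551013) had 19.8% to 44.7% (median 29.4%) with the NLS and 12.2% to 19.1% (median 14.1%) with the NES, without overlap. Lysosomal genes held 3 at 1586 sites (0.189%), namely CLCN7 and 2 sites in the 5′ UTR of LAMP1, a lysosomal membrane protein. HnRNP proteins had 3 members at 2960 sites (0.101%), all in RAVER1. Spliceosome proteins had 3 at 3321 (0.0903%), ribosomal proteins 4 at 5021 (0.0797%), and pore and export genes 2 at 2653 (0.0754%). The export genes with a member were DDX39B and XPO1, the receptor that carries NES cargo. In each of these 8 lists the median difference over the listed sites was negative.

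Sequence around the sites was richer in G and C than in the rest of the list. The 20 flanking bases had a mean GC content of 65.3% ± 13.3 (SD over members with a transcript sequence), against 56.3% ± 14.2 for all listed sites and 56.9% ± 13.5 for the NES-higher sites. The base before the edited A was C at 38.4% of members (30.2% of all, 30.1% of NES-higher) and A at 26.8% (35.5% and 37.2%). G followed the edited A at 61.4%, against 58.7% of all and 69.8% of the NES-higher sites. CAG was the context at 25.1% of members (20.0% and 23.3%), and it is the context of C11orf68 and RAVER1 in the sequences printed above.

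Members also lay more often in first exons and less often in last exons than the listed sites did. The distance from the start of the transcript was not summarised, and a site in a long first exon can lie far from it. The first of several exons held 22.4% of members, against 7.45% of all listed sites and 4.77% of the NES-higher sites, and the last exon 26.2% against 38.4% and 43.7%. Their median distance to the nearest exon junction was 164 bases, against 73 and 80, and 26.8% lay within 50 bases of a junction against 39.6% and 38.1%. GC content and position near the start move together in human transcripts, and their separate parts in these shares were not tested. Within 50 bases of another member lay 60 members, so neighbouring members are not independent observations.

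In the predicted fold of the spliced transcript (100 bases on either side, minimum free energy), the edited base was paired at 35.0% of the 451 members with a transcript sequence (Wilson 95% interval 30.8 to 39.5), against 42.7% of 28633 other listed sites of the same genes (42.2 to 43.3). These intervals cover counting over sites only, and sites of 1 transcript share their sequence. The median free energy per base was -0.371 kcal/mol for members and -0.336 for the others. Folds of unspliced RNA were not computed here.

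The rule used none of the full-length ADAR2, Cas13b and control libraries. It needed a difference of 2 points, however, and so left out sites with little editing. The median of the mean NLS share was 13.0% at members and 1.70% over the list. Part of a gap between members and the list can therefore come from the choice of sites, and how much was not tested. Full-length ADAR2 edited the 474 sites more than the list as a whole: the median over sites of the mean share of its 4 libraries was 11.6%, against 0.945% for all listed sites and 1.99% for the NES-higher sites. In single libraries the member medians were 3.57% and 7.08% for wild type without and with the GluR2 adRNA and 9.96% and 20.8% for E488Q. With limma's moderated test and Benjamini-Hochberg adjustment over all sites at 0.05, full-length ADAR2 was above the 4 control transfections at 358 members (75.5%), against 25.3% of all listed sites and 32.3% of the NES-higher sites. No member was lower by the same limma test (0.0219% of all sites were), while 400 had an unadjusted p under 0.05 in either direction. Counts at an unadjusted p, here and below, are given without a share over all sites and cannot be read as an excess. Without the 20 XIST sites the count was 341 of 454, and on untransformed shares it was 186 of 474 members (39.2%) and 4.99% of all sites.

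The Cas13b fusion, compared with the same 4 controls, was called at a smaller part of the members than of the list. Its median share at members was above that of all listed sites and below that of the NES-higher sites. Its 2 libraries had a member median of 3.94% for the mean share, against 2.38% for all listed sites and 8.26% for the NES-higher sites. By the limma test it was above the controls at 210 members (44.3%), fewer than the 53.8% of all listed sites and the 83.2% of the NES-higher ones. Without the Cas13b library that lacked the gRNA the count was 112 (23.6%, against 32% of all sites), and on untransformed shares it was 76 (16.0% against 42.0%). No member was lower (0.0144% of all sites were), with 238 at an unadjusted p under 0.05 in either direction. The controls are shared with the full-length comparison, so the 2 counts are not independent.

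Set directly against the Cas13b fusion, which carries the same E488Q deaminase domain, full-length ADAR2 (E488Q) had the higher mean share at 395 members (83.3%), against 38.0% of all listed sites and 23.8% of the NES-higher sites. The limma test called it higher at 224 members (47.3%; 9.18% of all sites; 2.5% of the NES-higher) and lower at 9 (1.9%; 19.6%; 31.1%). Without the Cas13b library with gRNA, 140 were called higher (29.5%, against 5.25% of all sites) and 15 lower (3.16% against 25.5%). Without the E488Q library with guide 22 were called lower (4.64% against 30.1%). The median member had 15.8% in full-length ADAR2 (E488Q) and 3.94% in the Cas13b fusion. The amounts of the 2 proteins were not measured.

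**Figure D5:**
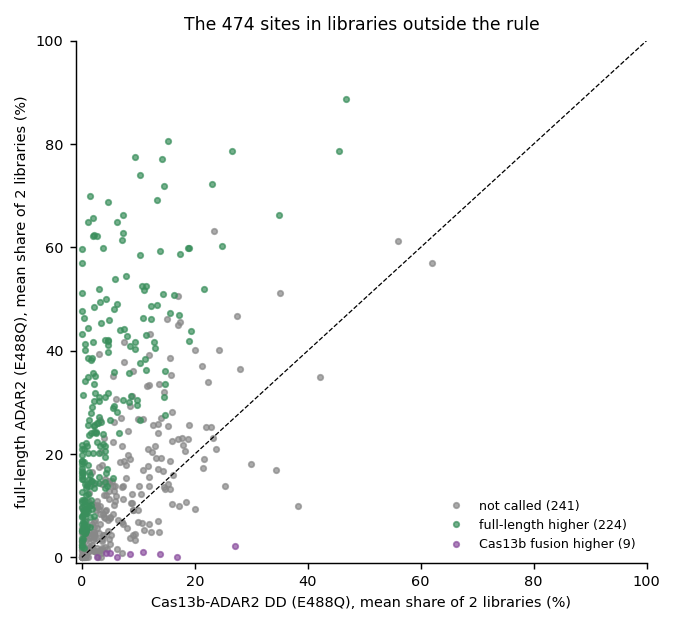
Mean share of 2 libraries (percent) in full-length ADAR2 (E488Q) on the vertical axis and in the Cas13b-ADAR2 DD (E488Q) fusion on the horizontal axis at each of the 474 sites. The dashed line marks equal shares, and colours mark the limma call at an adjusted p of 0.05. Of the 474 points, 395 lie above the line, and 224 of them were called.

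In the same libraries, the 20 XIST members had a median share of 9.81% in full-length ADAR2, with a range of 0.114% to 62.4%, and 0.390% in the Cas13b fusion. Full-length ADAR2 was above the controls at 17 of the 20 by limma, and the Cas13b fusion at 0 of the 20. Full-length E488Q was above the Cas13b fusion at 19 of the 20 by the same test. Over all listed sites the shares called were 25.3%, 53.8% and 9.18%, in that order. Calls at the other XIST sites were not counted. Over all 468 listed XIST sites the median share was 2.16% in full-length ADAR2 and 0.0825% in the Cas13b fusion, so that order was not particular to the members. At position 73831172 the 4 full-length shares were 51.7%, 57.8%, 60.5% and 79.4%, the Cas13b shares 1.66% and 1.18%, and the NLS median 3.29% (adjusted p = 0.000146 by limma for E488Q against Cas13b). At position 73822936 the order was different: the 4 full-length shares were 0%, 0%, 0% and 0.457%, while the NLS median was 9.87%. At the first of these positions the full-length shares were above the NLS shares, and at the other they were below the NLS median.

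The 5 largest gains of full-length ADAR2 over the controls were in FLNA, DCAF16, CDK13, WNK1 and CSNK1G3. FLNA, an actin-crosslinking filamin, had its Q2341R site at chromosome X, position 154351582, 2 bases before the end of exon 43. Full-length shares there were 75%, 57.3%, 54.9% and 76.6%, the Cas13b shares 2.58% and 1.33%, and all 4 controls 0% (limma adjusted p = 0.000303 against controls). With MCP, the FLNA site had 3.05% to 39.4% (median 18.3%) under the NLS and 0% to 9.75% (median 3.39%) under the NES. In the 5′ UTR of WNK1, a kinase of ion transport (chromosome 12, position 752884), full-length shares were 74.4%, 77.8%, 65.0% and 67.5%, and the Cas13b fusion also rose above the controls, to 43.6% and 26.2% (limma adjusted p = 0.000544). The 5′ UTR site of CSNK1G3, a casein kinase, had 53.8%, 64.6%, 65.2% and 82.9%, against 20.5% and 0% with Cas13b. Sites in DCAF16, a ubiquitin ligase adaptor, and CDK13, a kinase of RNA polymerase II, also had edited reads in the controls and are described with those below.

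The 5 largest gains of the Cas13b fusion were in USP42, WNK1, MBOAT7, ZNF358 and DMPK. In USP42, a deubiquitinase, the T825T site had 44.4% and 32.3% with Cas13b and 0%, 13.8%, 14.3% and 5.56% with full-length ADAR2. Their difference was not called (adjusted p = 0.0535 by limma for E488Q against Cas13b). In ZNF358, a zinc finger gene, the S389G site (in exons of more than 1 gene) had 39.2% and 30.8% against 42.6%, 55.6%, 37.3% and 64.9%, also not called (limma adjusted p = 0.201).

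By the adjusted p-values in the authors' deposited table, taken at 0.01, the members passed in 16.9% and 28.3% for full-length wild type without and with guide and in 39.5% and 66.5% for E488Q. For all listed sites these shares were 1.51%, 4.85%, 6.72% and 32.7% in the authors' deposited table. The Cas13b fusion passed at 20.3% of members without gRNA and 8.86% with it, against 29.5% and 12.9% of all sites in the same authors' deposited table.

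The comparisons of variant, enzyme and MS2 guide used the same 16 MCP libraries that chose the members. Their contrasts differ from the NLS contrast, but the rule needed a difference of 2 points and so could not be met by sites with little editing, and the counts of members are given as a description. The E-to-Q substitution went with higher shares at many members. In a limma fit with enzyme, variant, localisation and guide as terms, 276 members (58.2%) were higher with E-to-Q, against 39.7% of all listed sites and 60.0% of the NES-higher sites, and 2 were lower (0.72% of all sites). With matched construct pairs as a block 1 member was lower. The largest rise was in CHERP, an RNA-binding protein with an SR-like tail: P449P had a mean of 45.1% over the 8 E-to-Q libraries and 9.81% over the 8 wild-type libraries, higher in 8 of 8 pairs (limma adjusted p = 2.46e-06). DMPK, the kinase of myotonic dystrophy, rose by 33.8 points and TRO, a trophoblast adhesion gene, by 31.8 at K303R, both in 8 of 8 pairs. KIF23, a mitotic kinesin, rose by 30.8 points at R818G, and a site in the pseudogene AC073869.1 by 31.0. ACIN1, a splicing-linked protein of the exon junction, was opposite at E734G, with 10.8% under E-to-Q and 27.9% under wild type, lower in 8 of 8 pairs (limma adjusted p = 0.000277). The other lower site, V621V of SPAG5, a spindle protein, had 2.16% and 8.44% (limma adjusted p = 0.0304) and lost its call with that block (limma adjusted p = 0.0542) and in 10 of the 16 fits that left out a library.

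ADAR2 fusions edited most members less than ADAR1 fusions, and the same held for the list as a whole. In the same limma fit 331 members (69.8%) were lower with ADAR2, against 66.0% of all listed sites and 63.8% of the NES-higher sites. In that fit 8 members (1.69%) were higher, against 2.6% and 6.45%. With matched construct pairs as a block 5 members were higher (limma adjusted p = 0.0679 for PAICS). CHPF2, an enzyme of chondroitin synthesis, had 7.43% with ADAR2 and 51.2% with ADAR1 at S252G, lower in 8 of 8 pairs (limma adjusted p = 5.47e-07). SP1, a transcription factor, had 4.08% and 39.1% at H642R. Sites in BABAM1 and CAMSAP1 were also among the 5 largest differences, with 3.01% and 39.0%, and 7.41% and 41.5%. On the other side were CKB, with 19.4% under ADAR2 and 7.35% under ADAR1 at chromosome 14, position 103521445 (limma adjusted p = 0.00824), and S389G of ZNF358, with 29.8% and 15.3%. Smaller rises with ADAR2 were called in PAICS (5.27 points), DNAJB12 (4.98) and RPL32 (4.20). With localisation left out of the fit, 4 members were called higher with ADAR2, and neither PAICS nor RPL32 was among them (limma adjusted p = 0.0759 and 0.0508).

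The MS2 adRNA guide made no callable difference at the members. The limma test called 0 of 474 in either direction, against 0.000783% of all listed sites higher and 0.0% lower, and 14 members had an unadjusted p under 0.05. For the full-length enzyme the guide comparison had 1 library on each side and no test: the share was higher with the GluR2 adRNA at 302 members and lower at 105 for wild type (median 1.67 points), and higher at 409 and lower at 46 for E488Q (median 9.47 points). With Cas13b, the library with gRNA was lower at 306 members and higher at 119 (median -1.28 points). Over all listed sites the medians were 0 points for wild type, 1.67 for E488Q and -1.19 for Cas13b. The share was higher with the guide at 40.9%, 71.6% and 18.4% of all listed sites, in that order. The Cas13b and E488Q shifts were thus also present over the list as a whole.

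Some members carried G in cells without a transfected deaminase. The mean share over the 4 controls was 2% or more at 30 members (6.33%), against 0.491% of all listed sites and 0.591% of the NES-higher sites. The highest control mean was 60.8%, at a member in a 3′ UTR. Among members in transcripts without a frame of coding genes it reached 30.9%. AURKA had 6.67%, 10.3%, 24.0% and 9.68% in the GFP, MS2 adRNA, GluR2 adRNA and Cas13b gRNA controls. Their mean was above the AURKA NES mean of 7.81%. DCAF16 had 15.4%, 19.2%, 16.7% and 15.4% in the same controls at chromosome 4, position 17802058. Full-length ADAR2 reached 88.0%, 85.7%, 57.1% and 100% at the DCAF16 site. CDK13 had control shares of 1.92%, 11.1%, 4.44% and 1.69% at Q35R and full-length shares of 62.8%, 57.8%, 62.5% and 92.6%. At RPL32, a ribosomal protein gene, the controls (4.69%, 11.3%, 10.2% and 11.5%) were as high as the NLS libraries (median 9.00%) at chromosome 3, position 12840244. At 7 members the annotated transcript had no adenosine, and 5 of the 7 were among the 30. Of these 5, 2 in TIAL1, an RNA-binding protein gene, had control means of 29.0% and 29.9%, 2 in SF1, a splicing factor gene, 19.5% and 18.8%, and 1 in CSK, a tyrosine kinase gene, 19.4%, all above their NLS means. Among the 444 members with a control mean under 2%, full-length ADAR2 was above the controls at 339 by limma.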

How the data were processed

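HEK 293T RNA was sequenced by the submitters in 30 samples, of which 29 were read here. Per the labels' protocols, poly(A) libraries were made from 300 ng of RNA. Tools named without settings in the submitters' processing notes are STAR 2.6.0c, bcl2fastq 2.18.0.12 and SAMtools, with the build GRCh38.p12. The authors deposited 2 tables over 382978 sites: the fraction of reads with G (0 to 1), and adjusted p-values whose test is not given in the sources used here. The deposited p-value table was used at 0.01 for counts only. 1 column of the fraction table had no sample name and was not used, so the untransfected value is the mean of untransfected samples 2, 3 and 4. Read depth is unknown, so precision rests on the number of libraries.

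The members and gene lists were chosen with earlier results of these data known. Sites were annotated with GENCODE release 29 in Python 3.11.15 with pandas 2.3.3, numpy 2.4.6 and scipy 1.17.1. Positions are 1-based: the transcript had an adenosine at 99.86% of 352930 sites that fall within a single gene's exons. Spliced windows were folded with ViennaRNA 2.7.2, and plots drawn with matplotlib 3.10.9.

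Shares were tested with limma 3.58.1 (R 4.3.3) after an arcsine square root, with an intensity trend and Benjamini-Hochberg adjustment over all sites at 0.05. The 16 MCP libraries were fitted with enzyme, variant, localisation and guide (11 residual degrees of freedom). The 10 full-length, Cas13b and control libraries were fitted by group (6 residual degrees of freedom). Each construct group held the library with and the library without guide, and the control group held 4 different transfections. The residual spread of that fit thus includes differences between guides and is not a spread over replicates. The fit was tested on simulated data. Because the files hold no read counts, no count test was run. Alternatives were untransformed or logit shares (offset 0.01), no trend, an interaction, localisation left out, a minimum mean share of 0.01, the untransfected mean added to the controls, each library left out, and other settings of the rule and features.

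Named sites were the 12 largest differences, the 3 largest of each of 6 classes, the members of the genes with most members, the sites next to the threshold, the 5 largest called changes in each test and up to 4 members of each gene list. Sites on chromosome 8 are shown without sequence, and 2 named sites are not reported here. The minimum of 30 listed sites, the control share of 2%, the counts without XIST and the block of matched construct pairs were chosen after seeing the data.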

Additional observations from a re-analysis of the deposited data

Results flagged for a closer look

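At K274R of BABAM1 (chromosome 19, position 17278879), a subunit of a deubiquitinase complex that acts in DNA repair, the effect of the E-to-Q substitution differed between the enzymes. The substitution went with 37.7 points in ADAR1 fusions and 2.75 points in ADAR2 fusions, a difference of 34.9 points (limma interaction of enzyme and variant, adjusted p = 0.0109). In the libraries outside the MCP set its shares were 0.543%, 2.59%, 1.69% and 5.74% with full-length ADAR2 and 3.80% and 0.599% with the Cas13b fusion. In these libraries, which chose the members, an interaction was called at 12 members (2.53%), against 3.69% of all listed sites.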

How the results depend on the processing

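Each construct and guide combination had 1 library, so no replicate numbers could be paired. With matched construct pairs, alike in all but the factor tested, as a block in limma, a setting added after seeing the data, 1 member was lower with E-to-Q and 5 were higher with ADAR2. That block left the other member counts for variant, enzyme and guide within 1.5 times. The number of sites meeting the rule was 590 at 1 point, 240 at 5 points and 99 when 8 of 8 pairs were required, and it ran from 501 to 1023 when 1 pair was left out and 6 of the other 7 were required. It was highest without the wild-type ADAR2 pair with guide, where 473 of the 474 remained. On untransformed shares 186 members were above the controls with full-length ADAR2 and 76 with Cas13b, and 14 were lower in full-length ADAR2 (E488Q) than with Cas13b. With 1 library left out these counts ran from 289 to 409, 112 to 249 and 6 to 22, and the count higher in full-length E488Q than with Cas13b from 140 to 295. Without intensity trend 1 member was lower in full-length ADAR2 than in the controls (0 to 1 with a library left out). With localisation left out of the MCP fit, 1 member was lower with E-to-Q (1 to 3 with a library left out) and 4 were higher with ADAR2. The share of members with G after the edited base was 66.4% at the 5-point threshold, and the paired share was 29.7% with 50 bases on either side, against 39.7% at other sites of the same genes. The causes of these shifts were not tested. Some counts of called members under these other settings, here and above, stand without the share over all listed sites. Calls over the whole list can move with the same settings, so such counts cannot show a change particular to the members. For the named sites with a call, 512 alternative fits kept it and 29 lost it, all in SPAG5, PAICS and RPL32, and none reversed the direction. Folding of unspliced sequence was planned and not run. Depth is unknown, so a share of 0% says only that a site is listed at 0.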
